A study of Mus musculus with 6 samples.

Results

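The genes of the BCL2 family, the caspases and the death receptor complex were examined after knockdown of Pik3ca in 344SQ, a mouse lung cancer cell line. The product of Pik3ca is p110-alpha, a catalytic subunit of phosphoinositide 3-kinase (PI3K). Of 34 listed genes, 32 had at least 1 Affymetrix probe set annotated to that gene alone, with 80 such probe sets among the 34945 single-gene probe sets of the array and 18193 genes in all. Bax and Ripk1 were not analysed here. The study compared 3 arrays of cells carrying a control short hairpin RNA (shRNA) with 3 arrays of cells carrying an shRNA against PIK3CA, both delivered as vectors by lipid transfection into the same line grown in serum-containing medium. Whether either group is a selected pool or a clone, how long after transfection RNA was taken, and the hairpin sequences are not given in the sources used here. The labels do not state that the 3 replicates were separate cultures, so the p-values cover the spread among these arrays alone, and that spread may be technical.

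Apoptosis through mitochondria is set by the balance within the BCL2 family. Antiapoptotic members hold the pore-forming proteins BAX and BAK in check, and BH3-only members (those that share only the short BH3 helix) release or activate them. Cytochrome c then leaves the mitochondrion and assembles the apoptosome with APAF1 and caspase-9, while inhibitor of apoptosis proteins restrain the caspases. Death receptors reach the same caspases through FADD and caspase-8, and BID links the 2 routes when caspase-8 cleaves it. In epithelial tumours PI3K signalling is known as a survival pathway because AKT phosphorylates BAD and keeps FOXO factors, which induce several BH3-only genes, out of the nucleus.

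Values are linear intensities, 1 per probe set and array, and the number of arrays limits their precision. A change is the mean of log2(intensity + 16) in PIK3CA shRNA cells less that in control cells, and the pseudocount of 16 lowers the change of dim genes. Each gene is given by its brightest probe set unless another is named. A gene is said to rise or fall where its adjusted p in a limma fit over all 18193 genes was below 0.05, and "dim" means a mean at or below the median brightness of all genes, an intensity of about 246. Pik3ca read 2450.5, 2324 and 2364 on the control arrays and 1249, 1237 and 1220.1 on the PIK3CA shRNA arrays, a change of -0.94 ± 0.05 (standard error; limma adjusted p = 0.000762). Of 9 markers of lung epithelium and carcinoma, 5 were above the median brightness, among them Krt8, Krt18 and Cdh1, while the lung-defining Nkx2-1, Sftpc and Napsa were dim. Leukocyte markers were above it in 1 of 7, fibroblast markers in 0 of 6 and endothelial markers in 1 of 5. Of these 27 markers, 1 was called, the fibroblast gene Dcn, dim and lower in PIK3CA shRNA cells.

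Of the measured death pathway genes 3 rose, Bid, Casp2 and Xiap, and 29 did not pass the test. That is 3 of 32 members (9.38%) against 11.5% of all genes, and 12.5% of the 24 members above the median brightness against 17.6% of all such genes. In the direction higher the background was 5.88%, and in the direction lower, where limma called 0 members (1 at an unadjusted p below 0.05), it was 5.62%. All 3 calls are in the direction higher, where 9.38% of members stand against that 5.88%. Above the median brightness, where all 3 lie, 3 of 24 members rose, against 793 of 9096 genes. Over both directions the share of members is below the background. At an unadjusted p below 0.05 by limma were 6 of 32 members, against 4706 of 18193 genes. Above the median brightness it was 6 of 24 members, against 3366 of 9096 genes. In 9 members (28.1%) the control and PIK3CA shRNA arrays did not overlap, against 33.1% of all genes, and among those above the median brightness this held in 33.3% of members and 48.6% of genes. The median change was 0.03 over the 32 members and -0.01 over all genes, and the median size of the change, whatever its sign, was 0.13 and 0.17. Of the 29 members not called, 21 had a 95% interval of the change that lay within 0.5 of 0 on the log2 scale, and 26 within 1.

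**Figure D1:**
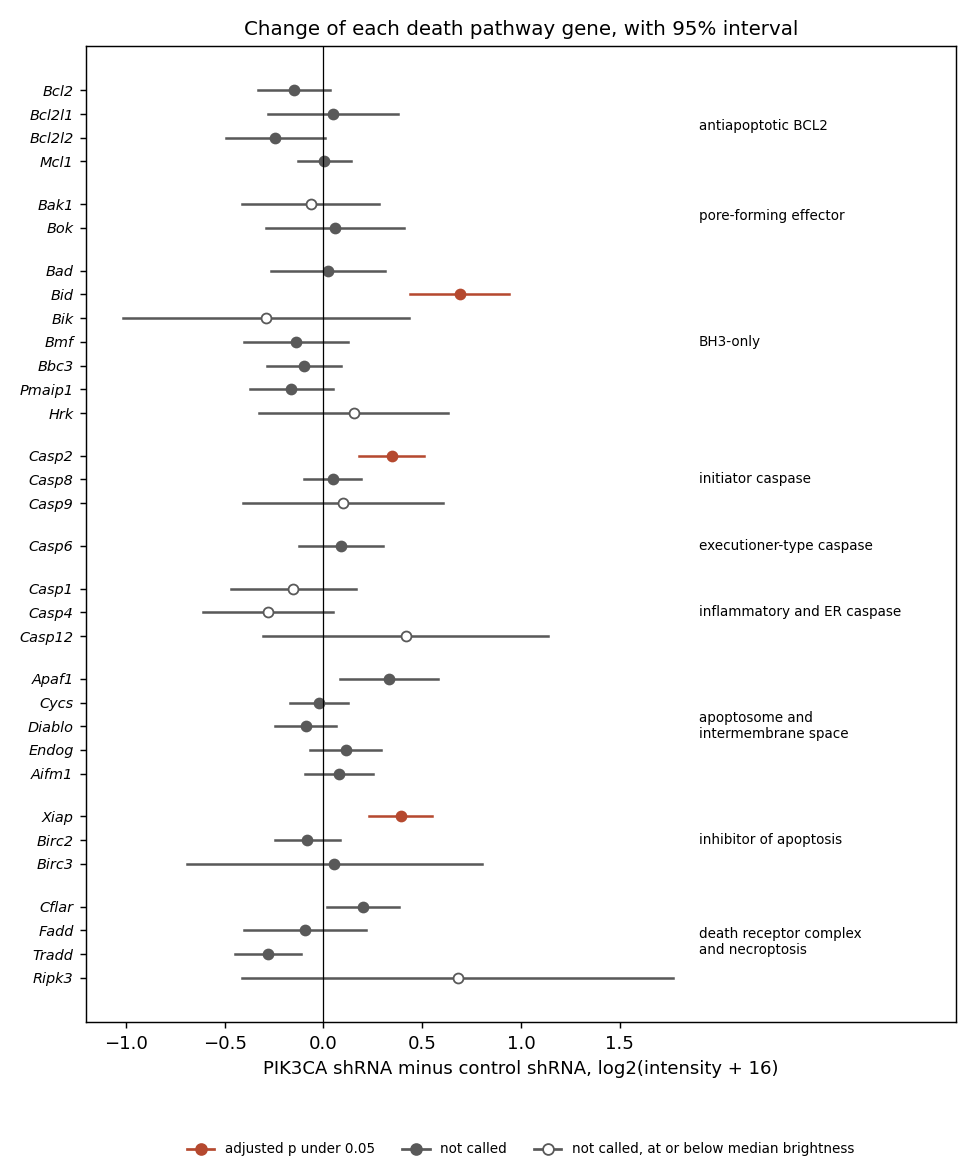
Change of each of the 32 measured genes (horizontal axis, log2(intensity + 16) in PIK3CA shRNA cells less that in control cells) with its 95% interval from limma, grouped by role. Bid, Casp2 and Xiap are marked as past adjusted p 0.05, and the widest intervals belong to Ripk3, Birc3, Bik and Casp12.

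Bid, the BH3-only protein that caspase-8 cleaves to carry a death receptor signal to mitochondria, had the largest change among the members. Its intensity was 857, 832 and 725 on the control arrays and 1268, 1212 and 1444 on the PIK3CA shRNA arrays. Every PIK3CA shRNA array lay above every control array. The mean went from 805 ± 70.0 to 1308 ± 121 (SD, n = 3 each), which is 163% of control, a rise of 0.69 ± 0.10 (standard error; limma adjusted p = 0.0139). A second Bid probe set read 202, 176 and 146 in control and 331, 296 and 287 in PIK3CA shRNA cells, again without overlap, and passed with a change of 0.76 when all probe sets were tested (limma adjusted p = 0.0282). The third Bid probe set changed less, by 0.23 from 482 ± 17.8 to 568 ± 32.8 (SD, n = 3 each), and did not pass (limma adjusted p = 0.139). Of 17 alternative settings, 3 ended the call of Bid. It was lost without PIK3CA shRNA replicate 1 (0.71, adjusted p = 0.0521), with replicate number as a block and at a threshold of adjusted p 0.01.

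Casp2 encodes caspase-2, an initiator caspase that responds to DNA damage and mitotic stress. Its only probe set read 1501, 1543 and 1635 in control and 2069, 1985 and 1904 in PIK3CA shRNA cells, so the groups did not overlap. The mean was 127% of control, a rise of 0.35 ± 0.07 (standard error; limma adjusted p = 0.0290). The 2 initiator caspases of the textbook pathways did not pass. Casp8, the caspase of death receptors, was close to level, at 2005 ± 55.6 and 2071 ± 69.1 (SD, n = 3 each), with a 95% interval of the change from -0.10 to 0.19. Casp9, the caspase of the apoptosome, was dim, at 201 ± 50.7 and 213 ± 28.2 (SD, n = 3 each), and its interval from -0.41 to 0.61 is wide. Casp6, an executioner caspase, read 1162 ± 77.5 and 1238 ± 88.9 (SD, n = 3 each), an overlap of the groups, and did not pass (change 0.09).

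Bid and Casp2 both lie on chromosome 6, and genes of that chromosome were higher as a whole. Over its 424 genes above the median brightness the median change was 0.18, with 77.8% of them positive and 25.5% called. Chromosome 2 had a median of 0.20, chromosome 5 of -0.15 and chromosome 8 of -0.25, while on the other chromosomes, X included, the medians ran from -0.05 to 0.04. With each chromosome's median taken out of each array, a setting chosen after the data were seen, Bid was at 0.51 (adjusted p = 0.0430) and Casp2 at 0.17 (adjusted p = 0.198). The call of Casp2 ended there, and it also ended when any 1 of the 6 arrays was left out (adjusted p from 0.0586 to 0.0963). Among members on these chromosomes that did not pass, the sign turned with the medians taken out for Bcl2l1 (0.05 to -0.15) and Endog (0.11 to -0.08) on chromosome 2 and for Diablo (-0.09 to 0.06) on chromosome 5, where Hrk went from 0.15 to 0.31. Whether the chromosome-wide difference plays a part in the rises of Bid and Casp2 was not tested beyond this.

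**Figure D2:**
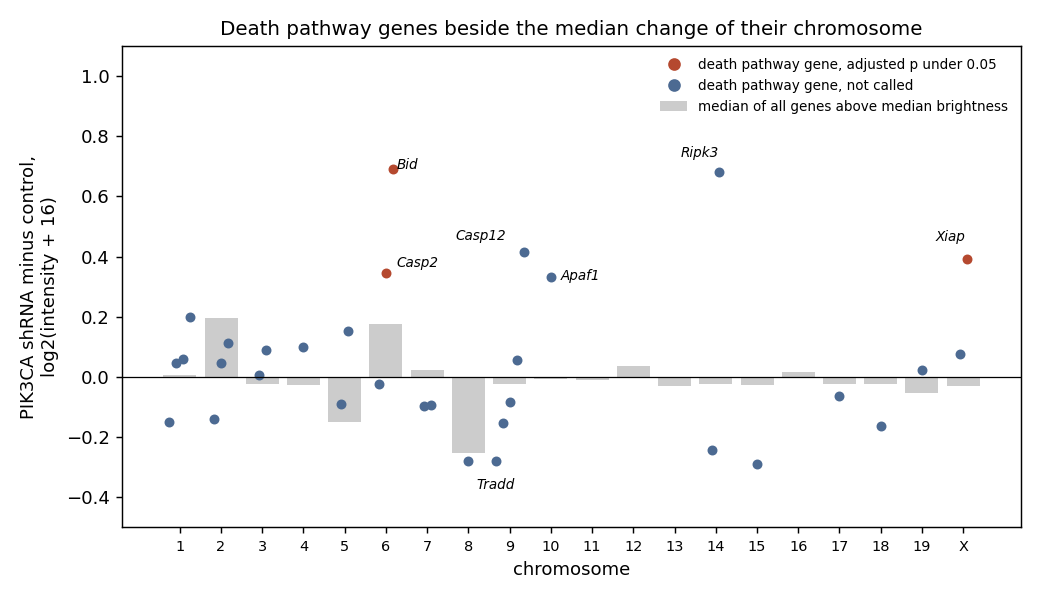
Change of each measured death pathway gene (points, log2(intensity + 16) scale) above the chromosome that carries it, with bars for the median change of all genes above the median brightness on that chromosome. Casp2 and Bid stand above a chromosome 6 bar of 0.18, Tradd sits at the end of the chromosome 8 bar of -0.25, and the bar of Xiap's chromosome is at -0.03.

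Xiap encodes the X-linked inhibitor that binds and blocks caspases directly. The brightest probe set read 4492, 4574 and 4569 in control and 5657, 6324 and 5954 in PIK3CA shRNA cells. The lowest PIK3CA shRNA array was well above the highest control array, and the mean was 132% of control. The rise was 0.39 ± 0.06 (standard error; limma adjusted p = 0.0188), and 0.42 with chromosome medians taken out (adjusted p = 0.0134). Of the other 6 Xiap probe sets, 5 were also positive, and 1 of them passed, from 634 ± 55.3 to 881 ± 49.2 (SD, n = 3 each). The remaining one had the other sign, reading 233, 228 and 238 in control and 180.3, 195 and 189 in PIK3CA shRNA cells, a change of -0.29 (limma adjusted p = 0.0583 over all probe sets). The probe sets of Xiap therefore disagree, and the mean over the 7 (0.26) did not pass (adjusted p = 0.366). With any 1 array left out the call of the brightest probe set held only without PIK3CA shRNA replicate 1 (adjusted p from 0.0437 to 0.0712 over the 6 fits).

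**Figure D3:**
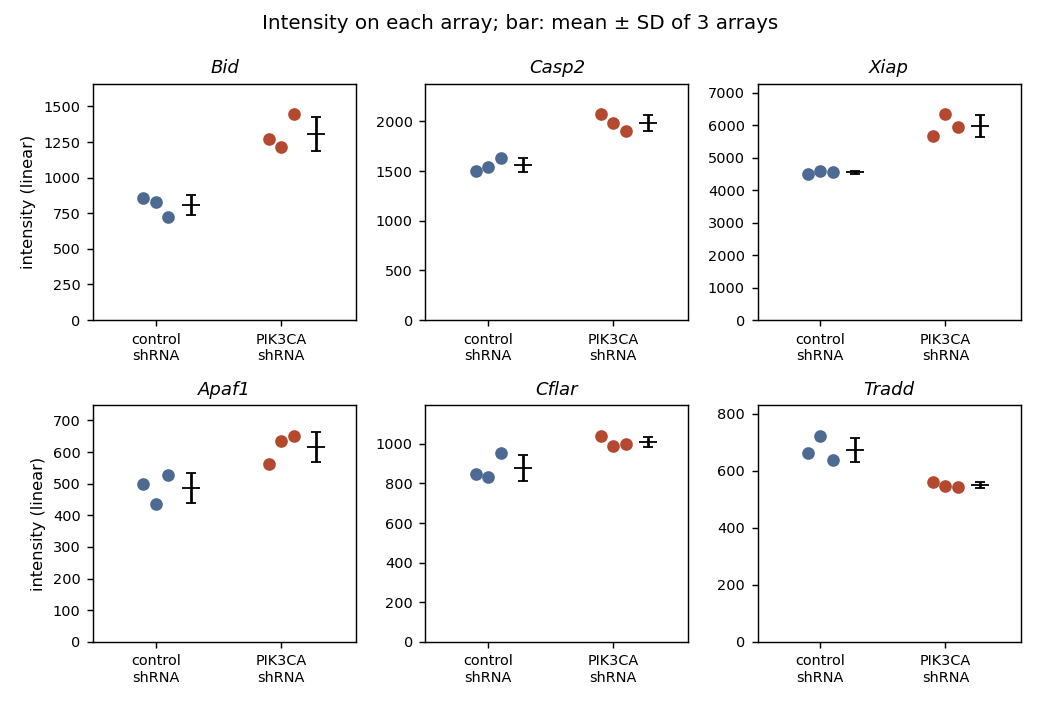
Intensity on each of the 6 arrays (points, linear axis from 0) for the 3 genes that rose and for Apaf1, Cflar and Tradd, with the mean and SD of 3 arrays as a bar. The panels show the 6 of 32 members at an unadjusted p below 0.05 by limma, against 4706 of 18193 genes. In all 6 the groups do not overlap. Over the 32 measured members the groups did not overlap in 28.1%, against 33.1% of all genes. Among the 6, Bid has the largest ratio between the groups, with a control mean of 805 and a PIK3CA shRNA mean of 1308.

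The 250 bases upstream of the annotated start are shown for the 3 genes that rose, from RefSeq on GRCm38.p6, to compare what their promoters hold. For Bid (chr6:120916825-120917074, minus strand), Casp2 (chr6:42264735-42264984, plus strand) and Xiap (chrX:42068148-42068397, plus strand, the first listed of its 3 starts), capitals mark GC boxes (GGGCGG or CCGCCC) and CCAAT boxes (CCAAT or ATTGG), read on both strands.
Bid: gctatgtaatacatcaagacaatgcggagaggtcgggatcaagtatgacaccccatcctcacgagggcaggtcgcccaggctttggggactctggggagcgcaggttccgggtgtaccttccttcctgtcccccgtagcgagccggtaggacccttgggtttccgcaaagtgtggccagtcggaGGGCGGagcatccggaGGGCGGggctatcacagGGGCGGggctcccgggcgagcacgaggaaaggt
Casp2: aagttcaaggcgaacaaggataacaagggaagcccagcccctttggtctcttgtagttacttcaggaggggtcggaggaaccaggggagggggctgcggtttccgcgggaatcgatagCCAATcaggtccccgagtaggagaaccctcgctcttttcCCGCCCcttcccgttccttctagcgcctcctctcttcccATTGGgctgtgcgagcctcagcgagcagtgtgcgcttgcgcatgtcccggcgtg
Xiap: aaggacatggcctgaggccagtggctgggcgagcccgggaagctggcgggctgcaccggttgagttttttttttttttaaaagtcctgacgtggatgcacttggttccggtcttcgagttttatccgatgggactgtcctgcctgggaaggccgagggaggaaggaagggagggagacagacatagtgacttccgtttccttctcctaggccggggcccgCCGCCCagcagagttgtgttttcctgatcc
The Bid window holds 3 GC boxes, and those of Casp2 and Xiap hold 1 each. CCAAT boxes occur in the Casp2 window only among these 3, where there are 2. GC content is 63.6%, 60.4% and 57.6%, with 18, 17 and 13 CpG dinucleotides. Upstream windows were found for 29 measured members. A GC box is in 17 of them (58.6%), against 49.9% of 14452 tested genes with a window of that length. A CCAAT box is in 7 (24.1%) against 35.7%, an E-box (CACGTG) in 2 (6.90%) against 7.56%, and a forkhead core (TGTTTAC or GTAAACA) in 1 (3.45%), Casp4, against 2.51%. The median GC content was 60.4% in members and 57.6% in all, with a median of 13 CpG dinucleotides in both. A match is a description of the letters in this window and says nothing of binding.

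Among the 4 antiapoptotic genes none passed by limma (0 at an unadjusted p below 0.05). Mcl1, whose short-lived product restrains BAK and BIM, had the narrowest interval of the 4. It read 7461, 7618 and 7403 in control and 7655, 7571 and 7351 in PIK3CA shRNA cells, a change of 0.01 with a 95% interval from -0.13 to 0.14. All 6 Mcl1 probe sets lay between -0.02 and 0.08. Bcl2, the founding member of the family, read 1300.4, 1230.3 and 1424 in control and 1179, 1220.3 and 1158 in PIK3CA shRNA cells. These groups did not overlap, but by a narrow gap, and the change of -0.15 did not pass (limma adjusted p = 0.285). All 5 Bcl2 probe sets were negative, from -0.37 to -0.15, and none passed, with 2 at an unadjusted p below 0.05; they measure the same gene and are not replicates of one another.

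Bcl2l1 encodes BCL-XL, a close antiapoptotic relative of BCL2. The brightest probe set scattered within each group, at 2780.0, 2148 and 2676 in control and 2373, 2921 and 2545 in PIK3CA shRNA cells, and the groups overlapped (change 0.05, interval from -0.28 to 0.38). Another probe set did not overlap, at 483, 507 and 380.5 against 689, 588 and 613, with a change of 0.46 that did not pass over all probe sets (limma adjusted p = 0.106). Bcl2l2, which encodes BCL-W, read 966, 1139 and 972 in control and 837, 948 and 805 in PIK3CA shRNA cells. No array overlapped, and the change of -0.24 did not pass (limma adjusted p = 0.204). Its 3 dim probe sets ran from -0.83 to 0.52.

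The pore-forming effectors Bak1 and Bok had overlapping groups by their brightest probe sets, with 0 of 2 at an unadjusted p below 0.05 by limma. Bak1 was dim, at 251 ± 36.3 and 239 ± 30.2 (SD, n = 3 each), and its other probe set, near the pseudocount at 13.6 ± 3.81 and 19.3 ± 1.07, did not overlap (change 0.26, limma adjusted p = 0.235 over all probe sets). Bok, a relative whose activity is governed by protein turnover, was 1014 ± 140 and 1056 ± 139 (SD, n = 3 each). Their intervals reached from -0.41 to 0.28 and from -0.29 to 0.41.

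Bid was the only 1 of 7 BH3-only genes to pass, and the others gave 0 at an unadjusted p below 0.05 by limma. Bad, whose product is an AKT substrate, read 553, 659 and 520.1 in control and 612, 617 and 526 in PIK3CA shRNA cells. The arrays of the groups were interleaved (change 0.02, interval from -0.27 to 0.31). Bmf, which senses loss of anchorage and is a known FOXO target, read 1299, 1531 and 1647 in control and 1418, 1272 and 1359 in PIK3CA shRNA cells. The groups overlapped, and the change of -0.14 did not pass. Bmf lies on chromosome 2, and with chromosome medians taken out it was at -0.33 (adjusted p = 0.126).

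Bbc3 and Pmaip1 encode PUMA and NOXA, the classical p53-induced BH3-only proteins. Bbc3 read 535, 630.4 and 590.2 against 553, 539.6 and 541, and Pmaip1 686, 724 and 626 against 646, 565 and 603. In both the groups overlapped, with changes of -0.10 (interval from -0.29 to 0.09) and -0.16 (interval from -0.37 to 0.05). Hrk and Bik, 2 further BH3-only genes, were dim. Hrk was 214 ± 58.0 and 236 ± 28.7 (SD, n = 3 each). Bik read 65.0, 41.5 and 37.3 in control and 37.3, 54.9 and 19.9 in PIK3CA shRNA cells. In both the groups overlapped, and the other probe sets of each had changes of the opposite sign to the brightest.

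Of the 32 members, 22 had several probe sets, and the plot of every probe set shows how far they differ within a gene. When all 34945 single-gene probe sets were tested together, 5 of the 80 member probe sets passed, all of Bid, Casp2 and Xiap and all positive, against 7.27% of all probe sets.

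**Figure D4:**
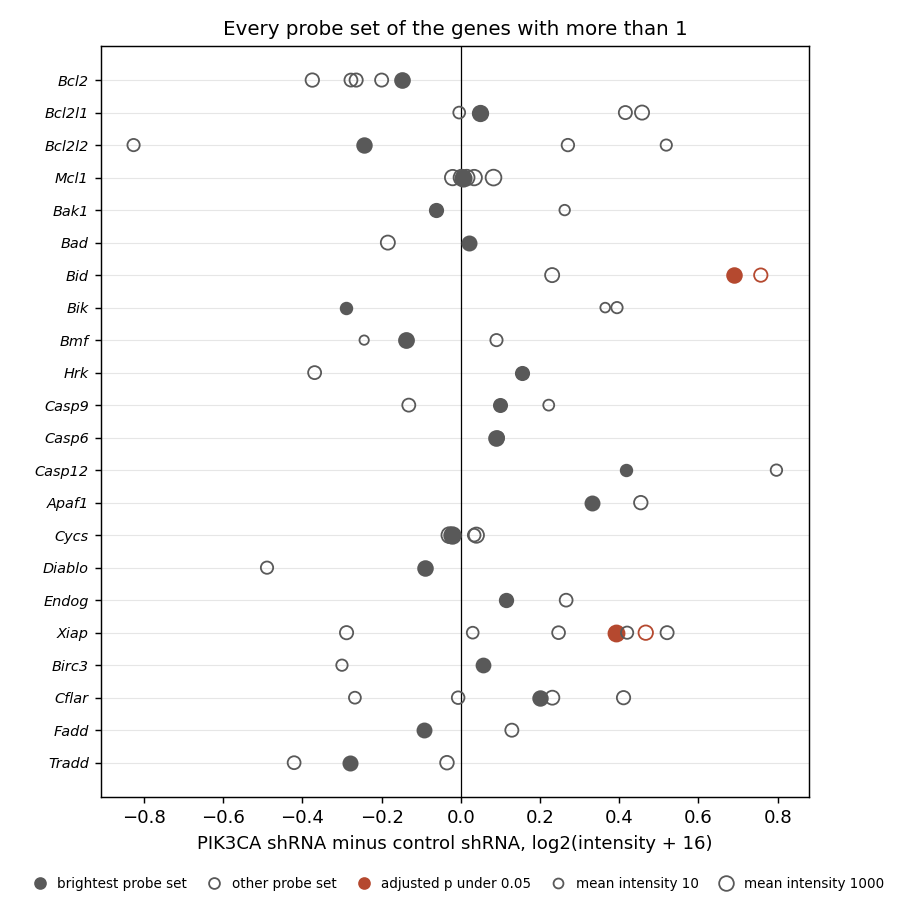
Change of every probe set (log2(intensity + 16) scale) for the 22 genes with more than 1, with the brightest filled, the size of a point rising with mean intensity, and probe sets past adjusted p 0.05 over all probe sets in red. Those of Mcl1 and Cycs lie between -0.03 and 0.08, all 5 of Bcl2 are below 0, and those of Xiap lie on both sides of it.

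Of the 5 genes of the apoptosome and the mitochondrial intermembrane space, none passed, with 1 at an unadjusted p below 0.05 by limma. That gene was Apaf1, the scaffold that recruits caspase-9. It read 498, 435 and 527 in control and 563, 635 and 650.1 in PIK3CA shRNA cells, without overlap, a change of 0.33 (limma adjusted p = 0.0995). Its other probe set did not overlap either, at 191, 256 and 251 against 312, 332 and 322, a change of 0.45. Apaf1 passed with the mean of both probe sets (0.39, adjusted p = 0.0465) and with dim genes left out of the fit (adjusted p = 0.0280).

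Cycs, which encodes cytochrome c, had a narrow interval at a high intensity. It was 10239 ± 175 and 10079 ± 415 (SD, n = 3 each), with the interval from -0.17 to 0.12, and its 4 probe sets ran from -0.03 to 0.04. Cycs also lies on chromosome 6, and with chromosome medians taken out it was at -0.20 (adjusted p = 0.106). Diablo, whose product SMAC displaces inhibitor of apoptosis proteins from caspases, was 1117 ± 29.9 and 1049 ± 48.0. The mitochondrial nuclease gene Endog was 257 ± 5.59 and 279.5 ± 21.0, and Aifm1, the apoptosis-inducing factor of the intermembrane space, 1824 ± 57.6 and 1926 ± 115 (SD, n = 3 each). In all 4 the groups overlapped.

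Besides Xiap, the inhibitor of apoptosis genes were Birc2 and Birc3, neighbours that encode the ubiquitin ligases cIAP1 and cIAP2 of the TNF receptor complex. Birc2 read 1108, 1078 and 1209.8 against 1083, 1051 and 1069, with overlap and a change of -0.08. Birc3, an NF-kB target, had the widest interval of the 24 members above the median brightness. It read 472, 547 and 315 in control and 602, 314 and 485 in PIK3CA shRNA cells, and its interval ran from -0.69 to 0.80. With this spread (standard error 0.30) the interval holds 0 and changes of either sign, so the direction is not settled. The adjusted threshold is stricter than this interval.

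In the death receptor complex, 4 genes were measured and none passed by limma, with 2 at an unadjusted p below 0.05, 1 in each direction. Tradd, the adaptor of TNF receptor 1, came nearest. It read 661, 722 and 638 in control and 562, 546 and 545 in PIK3CA shRNA cells, so every PIK3CA shRNA array was lower. The change was -0.28 ± 0.07 (standard error; limma adjusted p = 0.0564). It passed with a pseudocount of 64 (-0.26, adjusted p = 0.0374), with dim genes left out (adjusted p = 0.0115) and with an intensity trend and robust prior (adjusted p = 0.0326). Tradd lies on chromosome 8, whose median was -0.25, and with chromosome medians taken out it was at -0.03 (adjusted p = 0.858).

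Cflar encodes c-FLIP, which occupies FADD in place of caspase-8. The brightest probe set read 846, 833 and 952 in control and 1039, 987 and 999.8 in PIK3CA shRNA cells. The groups did not overlap, and the change of 0.20 did not pass (limma adjusted p = 0.160). The other 4 probe sets ran from -0.27 to 0.41. Fadd, the adaptor that binds caspase-8, was 546 ± 7.73 and 516 ± 86.0 (SD, n = 3 each), with the arrays of PIK3CA shRNA cells lying on both sides of the control arrays.

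Ripk3, the kinase that drives necroptosis, was dim and uneven. It read 9.35, 3.93 and 46.4 in control and 31.0, 30.1 and 43.8 in PIK3CA shRNA cells. A single control array was the highest of the 6, and the interval of the change ran from -0.41 to 1.77. Without that array, control replicate 3, the change was 1.17 (adjusted p = 0.0371), with both remaining control arrays below the pseudocount.

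The inflammatory caspase genes were dim in both groups, and limma called 0 of 3 (0 at an unadjusted p below 0.05). Casp1, which processes interleukin-1 beta, did not exceed an intensity of 9.83 on any array. Casp4, the mouse lipopolysaccharide-sensing caspase, read 14.1, 18.1 and 16.2 in control and 14.0, 12.1 and 5.99 in PIK3CA shRNA cells. The groups did not overlap, but most of these values are below the pseudocount and the change of -0.28 did not pass. Casp12, linked to the endoplasmic reticulum, read 53.9, 16.1 and 31.7 in control and 56.1, 45.6 and 41.2 in PIK3CA shRNA cells, with overlap.

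Beyond these members, 67 of 76 further death pathway genes, listed by function, were measured, and the other 9 were not analysed here. Of the 67, 6 rose and 5 fell (16.4%, against 11.5% of all genes), with a median change of -0.01, the same as over all genes. Above the median brightness, where 42 of the 67 lie, 9 of those 42 were called, against 1599 of 9096 genes (17.6%). Of the 11 calls, 7 are on chromosomes 2, 5, 6 or 8, and 6 of these are in the direction of the chromosome median. Calls were frequent there among all genes above the median brightness, at 27.2%, 25%, 25.5% and 38.5% of them. Most followed the chromosome median, with 24.2% higher on chromosome 2, 20.2% lower on 5, 22.6% higher on 6 and 36.5% lower on 8. With chromosome medians taken out, 8.96% of the 67 were called, against 8.61% of all genes. The largest change was in Bcl2l15, a further BCL2-family gene. It went from 10.2 ± 1.00 to 177 ± 18.2 (SD, n = 3 each), a rise of 2.87 ± 0.09 (standard error; limma adjusted p = 0.000125). Its control arrays were below the pseudocount, and in PIK3CA shRNA cells it was still dim. Bcl2l11, which encodes the BH3-only protein BIM, a FOXO target, rose by 0.50 from 1274 ± 35.1 to 1814 ± 80.9 (SD, n = 3 each). It lies on chromosome 2 and was at 0.31 with chromosome medians taken out (adjusted p = 0.0405), and its probe set of largest interquartile range did not pass (0.64, adjusted p = 0.188). Neither of these BCL2-family genes is among the 32 members, of which Bid alone rose in that family.

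Among further inhibitors of apoptosis and their antagonists, 2 of 9 rose and 1 fell (33.3%, against 11.5% of all genes). Naip2, a neuronal apoptosis inhibitory protein that acts as an inflammasome sensor, was dim and rose by 0.80 from 48.2 ± 3.48 to 96.3 ± 9.40 (SD, n = 3 each). Htra2, whose mitochondrial protease counters XIAP, was the other rise (0.45, limma adjusted p = 0.0490), and 13 of its 17 alternative settings ended that call, among them chromosome medians taken out (0.27, adjusted p = 0.190). Birc5, the survivin gene that acts mainly in mitosis, fell by 0.54 on the log2 scale, from 1297 ± 86.6 to 888 ± 33.4 (SD, n = 3 each).

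Of 14 adaptors and ubiquitin enzymes of the death receptor complex, 1 rose and 1 fell (14.3%, against 11.5% of all genes). Rbck1, a subunit of the linear ubiquitin ligase, rose by 0.55, and Cyld, a deubiquitinase that removes such chains, was lower by -0.40 (limma adjusted p = 0.0230 and 0.00958). They lie on chromosomes 2 and 8, and with chromosome medians taken out they were at 0.35 (adjusted p = 0.0956) and -0.15 (adjusted p = 0.152). Of 8 necroptosis and pyroptosis genes 1 was called (12.5%, against 11.5% of all genes). Gsdme, a pore-forming gasdermin cut by executioner caspases, fell from 852 ± 34.9 to 669 ± 38.0 (SD, n = 3 each). Its other probe set had the opposite sign, at 0.51, and the mean of both was at 0.08. Mlkl, the membrane effector of necroptosis, was at -0.42 and missed the threshold (limma adjusted p = 0.0505). It passed under 4 alternatives, but it lies on chromosome 8 and was at -0.17 with chromosome medians taken out (adjusted p = 0.378). Aim2, a sensor of cytosolic DNA, had dim and uneven control arrays and did not pass (1.27, adjusted p = 0.108).

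Of 12 mitochondrial and death kinase genes 25% were called, against 11.5% of all genes. Mtch2, a mitochondrial receptor of cleaved BID, rose by 0.33. Vdac3 (-0.28), an outer membrane channel gene, and Bcap31 (-0.31), an endoplasmic reticulum caspase-8 substrate, fell. Mtch2 was at 0.13 and Vdac3 at -0.02 with chromosome medians taken out, neither past the threshold, and Bcap31 at -0.29 (adjusted p = 0.0447). The calls of Gsdme, Mtch2, Vdac3 and Bcap31 ended when any 1 array was left out, and those of Rbck1 and Htra2 held only without PIK3CA shRNA replicate 2. Of the 11 death receptors and ligands limma called 0, against 11.5% of all genes. An unadjusted p below 0.05 was found in 2 of the 11, of which Tnfrsf21, death receptor 6, was at -0.35 (adjusted p = 0.0755). Aven (0.31, adjusted p = 0.0618), Cradd (-0.46, adjusted p = 0.0891) and Bnip1 (-0.47, adjusted p = 0.129) did not pass either.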

How the data were processed

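RNA was hybridised to Affymetrix arrays, 1 per sample, per the labels' protocols. The authors' deposited intensities are linear, and all 6 arrays share their minimum and maximum; the sources used here do not name the normalization. No detection calls were used. Array medians lay between 134.6 and 135.0. Each array was divided by its median, brought to 1 shared median, and log2(intensity + 16) was taken. The 64 control probe sets were left out. Genes were named from the platform annotation and a RefSeq table of GRCm38.p6, which changed 0 symbols; a gene is its brightest single-symbol probe set. The comparison used limma 3.58.1 (R 4.3.3; lmFit and eBayes, two-sided), with Benjamini-Hochberg adjustment over 18193 genes and a threshold of 0.05; all adjusted p-values are from limma. The limma fit alone was tested on simulated data, without the scaling, the choice of probe sets or chromosome-wide differences. All measured members were named, as were further pathway genes that passed and the next 6 by adjusted p. Members, lists and tests were chosen with earlier results of these data known. Promoter windows are the first listed per gene; Bik, Pmaip1 and Tradd had none. Figures used matplotlib 3.10.9 in Python 3.11.15.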

Additional observations from a re-analysis of the deposited data

How the results depend on the processing

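The 3 arrays per group limit precision, and dim genes, without detection calls, carry the least. The replicate numbers of the labels gave no sign of pairing. Correlations of deviations between the groups ran from -0.02 to 0.06 for same-numbered arrays and from -0.07 to 0.08 for the others. With 3 arrays per group this check cannot show that the samples were unpaired. With a replicate block limma called 0 members (6 at an unadjusted p below 0.05), 1 further pathway gene and 413 genes in all, against 3, 11 and 2093. At adjusted p 0.01 the counts were 0 members (6 at an unadjusted p below 0.05), 4 and 636. Leaving out 1 array gave 1 to 2 members, 5 to 7 further genes and 945 to 1138 in all. Taking per gene the most variable probe set (by interquartile range) gave 1 member (3.12%) and 4 further genes (5.97%), against 8.54% of all genes. Leaving out dim genes gave 5 members of 24 (20.8%) and 15 further genes of 42 (35.7%), against 33.2% of the 9096 genes kept. Further genes numbered 6 with the mean of all probe sets (8.96%, against 8.3% of all genes). They numbered 7 with all probe sets as features (10.4% against 11.1%) and 6 with chromosome medians taken out (8.96% against 8.61%). The intensity trend and robust prior gave 4 members (12.5%), 15 further genes (22.4%) and 3192 genes in all (17.5%). Quantile normalization, upper quartile scaling and a pseudocount of 1 kept 3 members called (9.38%), against 11.4%, 11.5% and 10.2% of all genes. The deposited arrays already shared their minimum and maximum and had near-equal medians, so the first 2 of these settings had little to change. By its most variable probe set Cyld was at 0.12 and Gsdme at 0.51, and Gsdme at 0.082 with the mean of its probe sets. Of the 29 members not called, 15 had the other sign under at least 1 of up to 17 alternatives and 3 passed under at least 1; no called member changed sign. The causes were not tested.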
